A study of Mus musculus with 31 samples.

Results

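miR-451 and miR-144-3p (mmu-miR-451 and mmu-miR-144-3p in the files), the red cell miRNAs of 1 short locus on mouse chromosome 11, were examined in whole lung RNA from smoke-exposed and room-air mice. Both were taken by their names in the scanner files, with all 4 of their probes, from the 650 miRNAs and 1857 probes of the array. The animals were female BALB/c mice, an inbred strain, that breathed cigarette smoke for 4, 6, 8 or 12 weeks or room air as control. The 31 samples, 1 Agilent 1-colour miRNA array each, form 8 groups: 4 arrays for smoke and 4 for control at each duration, but 3 for 12 weeks smoke. The sources used here give neither the age of the mice nor the smoke dose, and do not say whether the arrays of a group came from separate animals. The p-values thus rest on the spread between arrays, part or all of which may be technical.

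The locus of the pair is transcribed as 1 primary RNA under the erythroid factor GATA1, and its products accumulate as red cells mature. The miR-451 hairpin is too short for Dicer and is cut by Argonaute 2 instead, a route that sets it apart from nearly all other animal miRNAs. In mice, miR-451 lowers Ywhaz and protects red cells from oxidant stress, and in human reticulocytes miR-144 was tied to lower NRF2, the factor that switches on antioxidant genes. Lung is rich in blood, so these miRNAs are often read as a gauge of red cells in a lung sample. No other measure of blood in the samples was used here. In bulk tissue, fewer cells of a type and less RNA per cell cannot be told apart.

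The mature sequences of RefSeq, build GRCm38.p6, are shown because they set what each probe reads. Capitals mark the seed, bases 2 to 8.

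miR-451: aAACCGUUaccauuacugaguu
miR-144-3p: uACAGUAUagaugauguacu
miR-101a-3p: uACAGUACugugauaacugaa

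miR-451 lies at chr11:78073186-78073207 and miR-144-3p at chr11:78073047-78073066, both on the plus strand. Their hairpins, Mir451a and Mir144, are separated by 99 bases. The pair of seeds is unlike, and none of the 477 mouse miRNAs of the array that could be matched to RefSeq by name, of 611, shares either seed in full. miR-101a-3p, a miRNA known to target Ezh2, is shown because it alone shares bases 2 to 7 with miR-144-3p. miR-144-3p has a GC content of 30%. Among 204 other mouse miRNAs detected on every array, 165 had a sequence, and 1 of these is lower. miR-451 has 36.4%. The hairpins are printed with the mature strand in capitals, since they show how differently the pair is placed.

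Mir451a: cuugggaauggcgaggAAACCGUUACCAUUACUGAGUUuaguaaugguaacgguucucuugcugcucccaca
Mir144: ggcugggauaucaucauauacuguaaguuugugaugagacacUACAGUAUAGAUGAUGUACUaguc

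The mature miR-451 strand covers bases 17 to 38 of its hairpin of 72 and so runs across the loop. miR-144-3p covers bases 43 to 62 of 66 and stays within the 3′ arm. miR-144-5p, miR-451b and miR-486 have no entry under these names on the array.

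Each miRNA was read by 2 probes of 10 spots. All spots of these probes were above background and none was saturated on any of the 31 arrays. The 2 miR-451 probes followed each other with a correlation of 0.977 across arrays once group means were removed, and the 2 miR-144-3p probes with 0.9996. miR-451 gave unscaled intensities of 70952 to 227369, at most 29.2% of the scanner's limit, and its brighter probe held the top rank on all 31 arrays, which bears on quantile scaling. miR-144-3p gave 209.2 to 6665. A level below is log2 of the brighter probe's intensity over its array's 75th percentile, which was 1018 to 3725 and was taken over 385 probes detected on every array. Levels are compared between arrays for 1 miRNA only.

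The 31 arrays lie on 4 slides, and slides 1 to 3 hold all 8 groups, while 12 weeks smoke is missing from slide 4. On each slide smoke samples fill 1 line of positions and control samples the other, and the column is the duration, so position cannot be told apart from smoke or from duration. Array 2 of 4 weeks smoke stands apart on the leading component of the other miRNAs, described below, with a score of 8.89. Array 3 of that group is next with 4.75, close to 3.84 for a 6 weeks control array. Both are lowest in miR-144-3p, array 3 only just, with -1.46 against -1.45 for array 1 of 8 weeks smoke. Results that rest on arrays 2 and 3 are given with and without them.

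The level of miR-451 was nearly the same in all 8 groups. At 4 weeks it was 5.98, 6.09, 6.02 and 6.09 in smoke lungs, against 6.03, 6.02, 6.01 and 5.67 in control lungs. At 6 weeks it was 6.01, 6.12, 6.03 and 6.03 in smoke lungs, against 6.04, 5.93, 6.35 and 6.52 in control lungs. At these durations the groups overlap, and the odd arrays are controls: 1 low at 4 weeks and 2 high at 6 weeks. At 8 weeks it was 6.09, 6.19, 5.89 and 6.38 in smoke lungs, against 6.01, 5.92, 6.04 and 6.12 in control lungs. At 12 weeks it was 6.20, 6.24 and 6.16 in smoke lungs, against 6.00, 5.94, 6.01 and 6.06 in control lungs. Only at 12 weeks did the groups not overlap, with every smoke array above every control array, as for 16.5% of the 272 tested miRNAs at that duration.

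No smoke difference of miR-451 passed the test, limma with Benjamini-Hochberg adjustment over 272 miRNAs and a threshold of 0.05. Of all tested miRNAs, 38.2% passed at 4 weeks, 8.09% at 6 weeks, 11.0% at 8 weeks, 9.56% at 12 weeks and 27.6% on average. Smoke minus control was 0.11 ± 0.10 log2 at 4 weeks (SE; adjusted p 0.376), -0.17 ± 0.10 at 6 weeks (0.402) and 0.12 ± 0.10 at 8 weeks (0.566). At 12 weeks it was 0.19 ± 0.11 (SE; n = 3 smoke, 4 control; limma adjusted p 0.277), with a 95% interval of -0.03 to 0.42. With the 12 weeks arrays fitted alone, whose spread is small, the same difference had a limma adjusted p of 0.0104. The shares above belong to the fit of all arrays. The share of all miRNAs that passed with the 12 weeks arrays alone is not given here. Whether this pass is particular to miR-451 thus cannot be told. Averaged over the durations the interval was -0.04 to 0.17 log2, at most 1.13-fold, around 0.06 ± 0.05 (SE; limma adjusted p 0.388). The sign of that average turned in 3 of 17 other settings, among them the authors' deposited table.

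miR-144-3p, from the same primary transcript, differed far more between arrays. At 4 weeks its level was 0.14, -2.52, -1.46 and 0.15 in smoke lungs, against 0.55, 0.05, 0.15 and 0.78 in control lungs. Smoke arrays 2 and 3 are far below the other arrays of that duration, while smoke arrays 1 and 4 lie among the controls. At 6 weeks it was -0.93, -0.63, -0.91 and -0.88 in smoke lungs, against 0.23, 0.84, -1.26 and -1.09 in control lungs. The smoke arrays are close together there, between a pair of high and a pair of low control arrays. At 8 weeks it was -1.45, 1.04, 0.57 and -0.65 in smoke lungs, against -0.62, -0.32, -0.40 and -0.65 in control lungs. At 12 weeks it was 0.02, 0.02 and -0.79 in smoke lungs, against -0.64, -1.17, -0.63 and -1.12 in control lungs. At 8 weeks the smoke arrays lie on both sides of the controls, and at 12 weeks 2 of 3 smoke arrays lie above all controls. The groups overlap at all 4 durations.

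**Figure D1:**
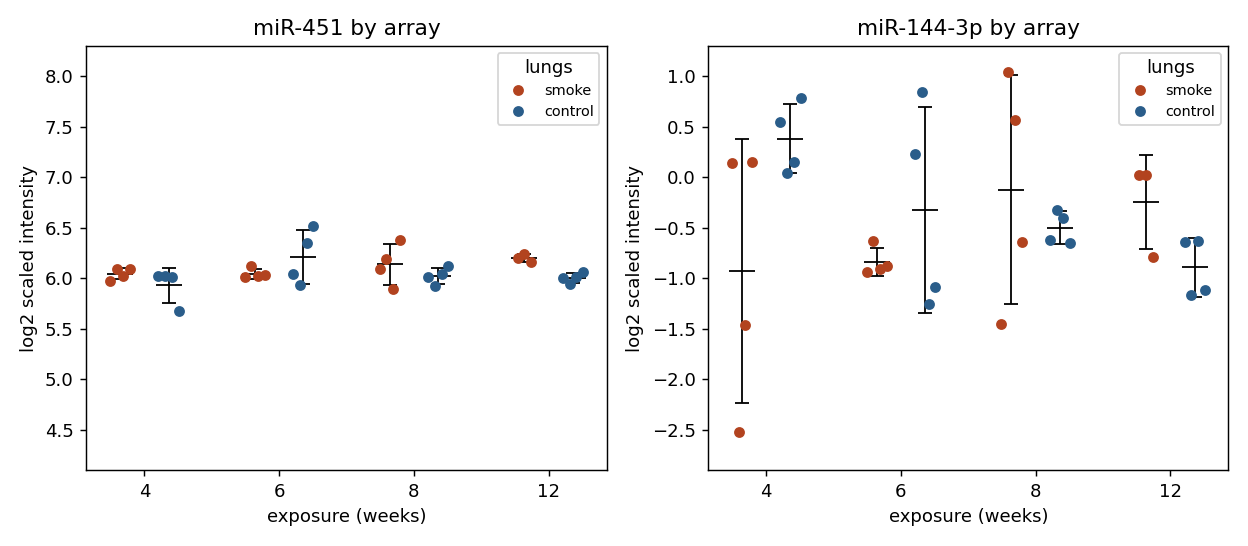
Log2 scaled intensity of miR-451 (left) and miR-144-3p (right) on each array by weeks of exposure, smoke left of control, with the group mean and SD as black bars, both vertical axes spanning the same number of log2 units. miR-451 stays between 5.67 and 6.52, while miR-144-3p ranges from -2.52 to 1.04, with both its extremes in smoke groups.

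Only the 4 weeks difference of miR-144-3p passed the test, and by a narrow margin. Its mean was -0.92 ± 1.31 in smoke lungs and 0.38 ± 0.34 in control lungs (SD, n = 4 each), a fall of the smoke group to 0.404-fold. The log2 difference was -1.31 ± 0.52 (SE; limma adjusted p 0.0490), against the 38.2% of miRNAs that passed at 4 weeks. Within slides the difference was -0.41, -2.57, -1.61 and -0.64, below 0 on all 4 slides. Without smoke arrays 2 and 3 it was -0.24 (limma adjusted p 0.899), and without array 2 alone -0.77 (0.294). The call was lost in 22 of the 31 fits that left out 1 array. Slide as a block gave an adjusted p of 0.0622, and the call was lost in 14 of 18 other settings, with adjusted p from 0.00818 to 0.899, and the sign turned in 1.

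At the later durations miR-144-3p did not pass. The difference was -0.52 ± 0.52 log2 at 6 weeks (SE; limma adjusted p 0.638), 0.38 ± 0.52 at 8 weeks (0.757) and 0.64 ± 0.56 at 12 weeks (0.482). These values run upwards with duration, but an F test of whether the smoke difference changed with duration, passed by 6.99% of all tested miRNAs, had an adjusted p of 0.157, and 0.197 for miR-451 (limma). Averaged over durations the difference was -0.20 ± 0.26 log2 (SE; limma adjusted p 0.600), with a 95% interval of -0.75 to 0.34. The intervals are wide, so changes of up to 1.80 log2 at 12 weeks lie within them.

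**Figure D2:**
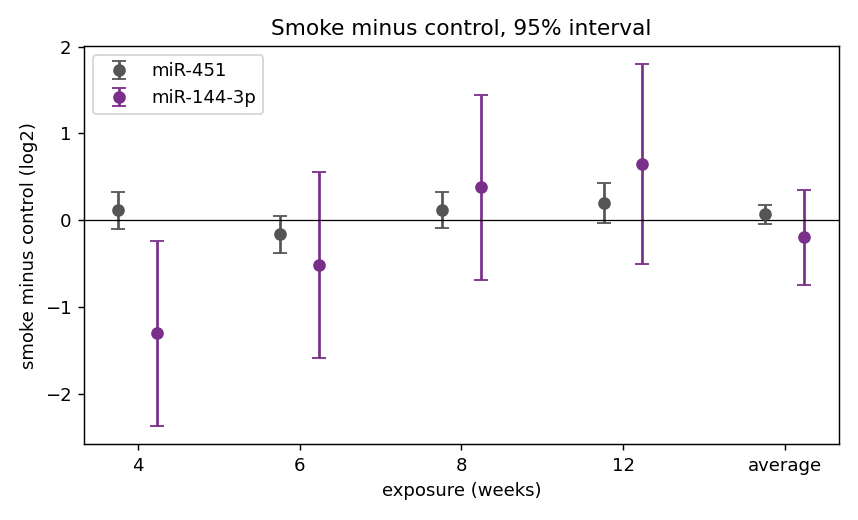
Smoke minus control in log2 for miR-451 (grey) and miR-144-3p (purple) at each duration and averaged over them, with the 95% interval of the limma fit. Only the interval of miR-144-3p at 4 weeks, -2.38 to -0.24, leaves out 0.

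Neither miRNA passed a test between durations within smoke or within control lungs. The F tests between durations gave adjusted p of 0.597 for miR-451 and 0.555 for miR-144-3p in smoke lungs, where 2.94% of tested miRNAs passed, and 0.177 and 0.248 in control lungs, where 6.99% did (limma). Ordered by mean, miR-451 was highest in 6 weeks control (6.21 ± 0.27; SD, n = 4), followed by 12, 8, 6 and 4 weeks smoke, then 8, 12 and 4 weeks control (5.93 ± 0.17). miR-144-3p was highest in 4 weeks control (0.38 ± 0.34; SD, n = 4), followed by 8 and 12 weeks smoke, 6 and 8 weeks control, 6 weeks smoke, 12 weeks control and 4 weeks smoke (-0.92 ± 1.31). The arrays of each group overlapped those of the next group in both orders, and each step was smaller than the SD pooled over groups. Some steps exceeded the SDs of tight groups: that of miR-144-3p between 8 weeks control and 6 weeks smoke was 0.34 log2, where the SDs are 0.16 and 0.14. Since duration is also the column of the array on a slide, differences between durations cannot be told apart from position.

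The spread between arrays of the same group set the pair further apart than smoke did. The pooled within-group SD of miR-144-3p was 0.760 log2, the largest among the 207 miRNAs detected on every array, whose median was 0.212. The next largest was 0.560, for miR-29b-3p. miR-451 had 0.145, and 50 of the 207 were steadier. That count was 82 without arrays 2 and 3 of 4 weeks smoke and 0 to 81 in other scalings and summaries, among them 9 in the authors' deposited table, with 0 under quantile scaling by construction. Over all 31 arrays miR-144-3p spanned 3.56 log2 (11.8-fold) and miR-451 0.84 log2 (1.80-fold). miR-144-3p also had the largest spread of the 207 in 7 of 8 other scalings and summaries. With the remaining one, normexp background correction, 22 miRNAs had a larger spread. Without arrays 2 and 3 of 4 weeks smoke its SD was 0.624 and still the largest, the next being 0.569.

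**Figure D3:**
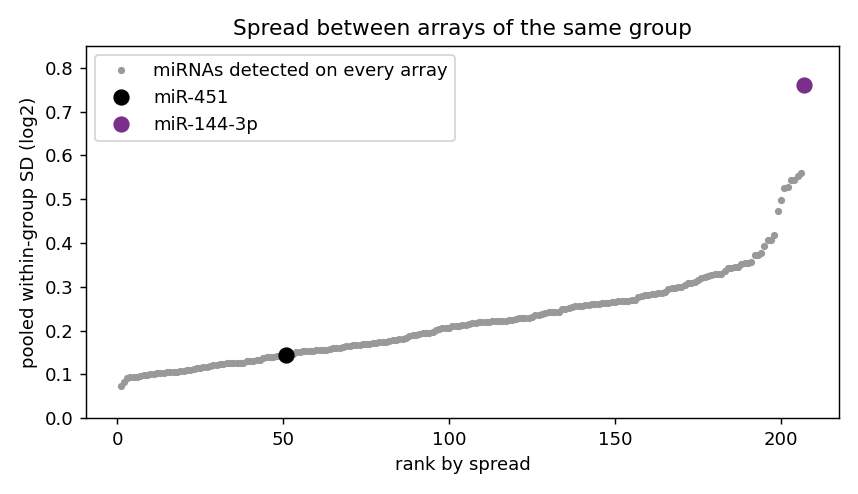
Pooled within-group SD (log2) of the 207 miRNAs detected on every array, in rising order, with miR-451 and miR-144-3p marked. miR-144-3p at 0.760 stands above all others, the next being 0.560, while miR-451 at 0.145 lies below the median of 0.212.

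The spread of miR-144-3p was not even over the groups. Its SD was 1.31 in 4 weeks smoke against 0.34 in 4 weeks control, 0.14 in 6 weeks smoke against 1.02 in 6 weeks control, and 1.14 in 8 weeks smoke against 0.16 in 8 weeks control. At 12 weeks it was 0.47 in smoke (n = 3) against 0.29 in control (n = 4). Wide groups are thus found in smoke at 4 and 8 weeks and in control at 6 weeks.

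Whether the cluster's products moved together from array to array depended on the scaling. With group means removed, miR-451 and miR-144-3p had a Pearson correlation of -0.46 over 31 arrays (permutation p 0.00946) and a Spearman rho of -0.40 (permutation p 0.0264). Each p stayed the same after adjustment over the 5 relations computed between array measures. Without the 2 arrays farthest from the median of miR-451 the Pearson value was -0.41 (permutation p 0.02655). It was -0.17, -0.46, -0.77 and -0.65 within slides 1 to 4, and -0.18 over smoke arrays and -0.83 over control arrays. The pair lay on the same side of their group means on 16 arrays and on opposite sides on 15.

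The sign turned when the percentile was taken over all probes (0.69), with no scaling (0.86) and in the authors' deposited table (0.53). In that table miR-451 holds the single value 16.7 log2 on 22 of 31 arrays, so its value there comes from few arrays. Quantile scaling makes the top-ranked miR-451 constant, and no correlation can be had.

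**Figure D4:**
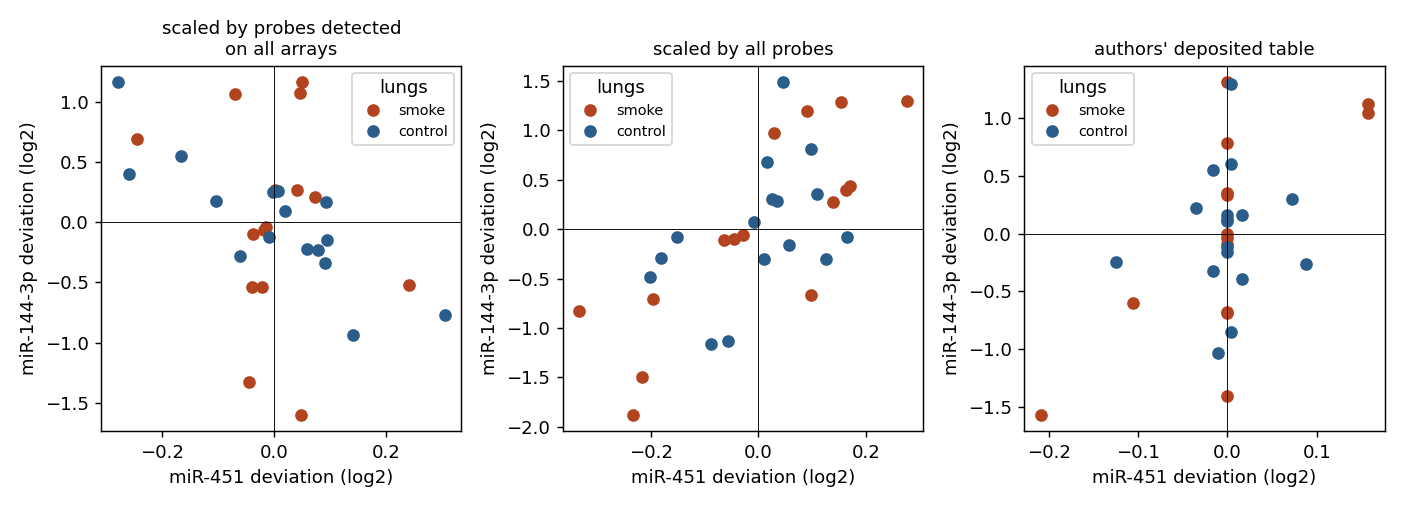
Deviation from the group mean (log2) of miR-451 (horizontal) and miR-144-3p (vertical) on the 31 arrays, under 2 scalings and in the authors' deposited table, smoke in red and control in blue. The points slope down in the first panel (-0.46), slope up in the second (0.69), and stand mostly on 1 vertical line in the third.

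The change of miR-144-3p less that of miR-451, taken array by array and free of any scaling, was tested by an exact permutation test over arrays (two-sided). At 4 weeks it was -1.42 log2 (exact p 0.143, adjusted over 4 durations 0.343), and at 6 weeks -0.35 (exact p 0.543). At 8 weeks it was 0.26 (exact p 0.686) and at 12 weeks 0.45 (exact p 0.171). The smallest p this design allows is 0.0286 before adjustment. After adjustment over 4 durations, a gap at a single duration could not have passed the threshold, whatever its size. The test thus cannot decide whether the pair responded differently to smoke at a single duration.

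miR-144-3p followed the main axis of difference among the other miRNAs almost one to one. The leading principal component of the other 205 miRNAs detected on every array held 46.1% of their variance. miR-144-3p had a Pearson correlation of -0.97 and a Spearman rho of -0.96 with it (n = 31, group means removed; permutation p 1e-05 for both, the smallest that 100000 resamples give, and 2.5e-05 adjusted). The Pearson value lay between -0.99 and -0.97 within the 4 slides and was -0.97 over smoke and -0.96 over control arrays. It was -0.96 (permutation p 1e-05) without the 2 arrays farthest from the median score of -0.50, arrays 2 and 3 of 4 weeks smoke. Array 4 of 4 weeks control has the lowest score, -5.14.

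With this scaling miR-451 followed the same axis less closely and in the other direction. Its Pearson correlation with the component was 0.57 (permutation p 0.00096, adjusted 0.0012) and its Spearman rho 0.46 (permutation p 0.00936, adjusted 0.0117). It was 0.34 over smoke and 0.91 over control arrays, 0.37 to 0.85 within slides, and 0.64 (permutation p 0.00021) without the same 2 arrays. With the component recomputed, the value for miR-144-3p was -0.39 with normexp and -0.98 to -0.88 in the other 7 settings, among them -0.88 with no scaling. That for miR-451 was -0.97 with no scaling, closer than miR-144-3p and in the same direction, -0.75 with the percentile of all probes, -0.65 in the authors' deposited table and -0.13 with normexp. It was 0.48 to 0.57 with the other summaries, and quantile scaling gave none.

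**Figure D5:**
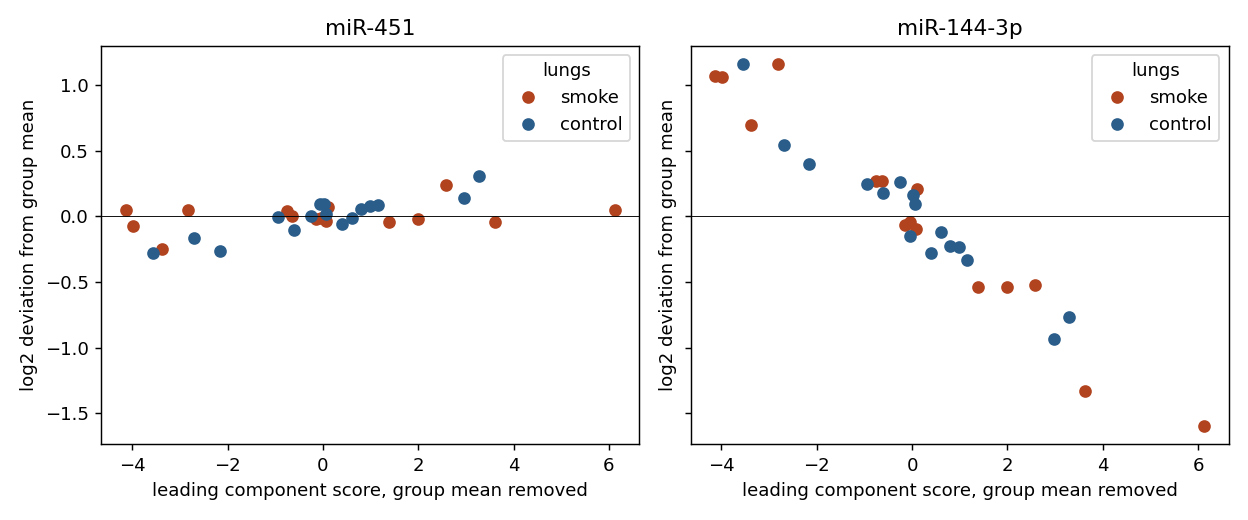
Deviation from the group mean (log2) of miR-451 (left) and miR-144-3p (right) against the score of the leading component of 205 other miRNAs with group means removed, smoke in red and control in blue. miR-144-3p falls along a line (-0.97), and miR-451 rises weakly with this scaling (0.57).

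With the component score as a covariate, chosen after the data were seen, the 4 weeks difference of miR-144-3p was 0.27 ± 0.15 log2 (SE; limma adjusted p 0.225) in place of -1.31. The averaged one was 0.17 ± 0.07 (limma adjusted p 0.0406) in place of -0.20. The score shares its arrays, and its smoke effect, with miR-144-3p. What it stands for was not tested.

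Brightness moved with both miRNAs too. The log2 of the 75th percentile, by which each level is divided, had a Pearson correlation of 0.74 with miR-144-3p (permutation p 1e-05, adjusted 2.5e-05) and a Spearman rho of 0.79 (with the same p and adjusted p). With miR-451 it had -0.66 (permutation p 8e-05, adjusted 0.00013) and a rho of -0.53 (permutation p 0.00237, adjusted 0.00395). Within slides it lay between 0.68 and 0.90 for miR-144-3p and between -0.81 and -0.63 for miR-451. The relation with miR-451 was 0.03 over smoke arrays and -0.95 over control arrays. Without the 2 arrays farthest from the median the Pearson values were 0.71 and -0.57. A divisor shared by both measures can itself give such a relation for miR-451, and the part of brightness was not tested.

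The miRNAs most like each member were ranked by correlation over 31 arrays with group means removed, among 204 mouse miRNAs detected on every array. These values describe likeness, and the arrays share their scaling. For miR-144-3p the highest were miR-29b-3p (0.98), which targets collagens, miR-141-3p (0.97), an epithelial miRNA of the miR-200 family, and miR-34b-5p (0.96), a miRNA of multiciliated cells. miR-101a-3p, whose seed shares bases 2 to 7 with it, and miR-30e-5p followed at 0.95 each. None of these is a red cell miRNA. Their GC content was 33.3% to 40.9%, where the median over the 165 of the 204 with a sequence was 45.5%. Likeness to miR-144-3p differed with GC content. The median correlation was -0.15 over 14 miRNAs under 35%, -0.53 over 92 of 35 to 50% and -0.81 over 59 above that. Across the 165 the correlation of likeness with GC content was -0.25. The part of GC content was not tested. The lowest were miR-151-5p (-0.98), miR-676-3p (-0.97) and miR-10a-5p (-0.97), the last from a Hox cluster. Epithelial miRNAs did not share 1 direction. Besides miR-141-3p, miR-200a-3p had 0.89, but miR-200b-3p had -0.95, miR-200c-3p -0.94, miR-375-3p -0.88 and miR-429-3p -0.34. miR-29b-3p kept its value under each of 8 other scalings and summaries, between 0.97 and 0.99, and had 0.97 without arrays 2 and 3 of 4 weeks smoke.

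The 5 miRNAs most like miR-144-3p were all lower in 4 weeks smoke lungs than in 4 weeks control lungs, and 4 of the 5 passed, where 11.4% of all tested miRNAs fell. They were picked for their likeness on these arrays. miR-29b-3p fell by 1.08 log2 (limma adjusted p 0.0314), miR-34b-5p by 0.81 (0.0240), miR-30e-5p by 0.81 (0.0145) and miR-101a-3p by 0.57 (0.0484). miR-141-3p differed by -0.93 and did not pass (0.0513). In other settings miR-30e-5p and miR-34b-5p kept this sign in 18 of 18 and the other three in 17 of 18, but the adjusted p was at most 0.05 in 12 for miR-30e-5p, 10 for miR-34b-5p, 9 for miR-29b-3p and 5 for miR-101a-3p. Without arrays 2 and 3 of 4 weeks smoke none passed, with differences of -0.31 for miR-34b-5p, -0.24 for miR-29b-3p, -0.22 for miR-30e-5p, -0.024 for miR-141-3p and -0.0048 for miR-101a-3p.

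For miR-451 the highest were miR-467b-5p (0.80), miR-3107-5p (0.78), the endothelial miR-126-3p (0.77), miR-484 (0.75) and miR-1897-5p (0.74). The lowest were miR-34c-5p (-0.56), miR-34b-5p (-0.55) and miR-29b-3p (-0.48). The partner product was in neither list: miR-144-3p ranked 201st of 204 for miR-451, and miR-451 ranked 86th of 204 for miR-144-3p, above that list's median correlation of -0.65. These ranks hold for this scaling only, since the correlation of the pair turned under 3 others.

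miR-3107-5p has a link to red cells. RefSeq gives its gene, Mir3107 at chr8:23142573-23142662, the synonym mir-486b, and it lies within Mir486, whose product is abundant in red cells and muscle. This match was made after its values were seen. Its level was -0.69 ± 0.43 in smoke and -1.08 ± 0.27 in control lungs at 4 weeks (SD, n = 4 each). Smoke minus control was 0.39 ± 0.18 log2 at 4 weeks (SE; limma adjusted p 0.0857), -0.34 ± 0.18 at 6 weeks (0.315), 0.12 ± 0.18 at 8 weeks (0.767) and 0.06 ± 0.19 at 12 weeks (0.914). With the scaling used here its correlation was 0.78 with miR-451 and -0.82 with miR-144-3p. In the authors' deposited table its correlation with miR-451 was -0.56. Its correlation with miR-144-3p was 0.59 with no scaling and -0.22 with the percentile of all probes. Without arrays 2 and 3 of 4 weeks smoke its 4 weeks difference was 0.06.

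Other miRNAs abundant in red cells, most of them present in many tissues, were taken from a list of 24 names. On the array were 16, of which 7 were detected on no array and 9 were tested. At 4 weeks 4 of the 9 rose and none fell, where 26.8% of all tested miRNAs rose and 11.4% fell, and their median difference was 0.34 log2 against 0.17 over all tested. The 4 were miR-25-3p (0.47 ± 0.15, limma adjusted p 0.0188) and miR-93-5p (0.35 ± 0.12, 0.0259) of the Mcm7 intron, with miR-22-5p (0.34 ± 0.09, 0.00716) and miR-22-3p (0.29 ± 0.09, 0.0198). The third miRNA of the Mcm7 intron, miR-106b-5p, differed by -0.17 ± 0.13 and did not pass (limma adjusted p 0.287), and its correlation with miR-144-3p was 0.76. The 4 that passed thus went opposite to miR-144-3p at this duration. In other settings miR-25-3p and miR-93-5p kept it in 18 of 18 and each miR-22 arm in 17 of 18, but 0 to 7 of the list rose, and 1 fell with the component score as a covariate. No member of the list passed the test at 6, 8 or 12 weeks, and its median was 0.08, -0.0041 and 0.06. Averaged over durations 1 rose, miR-22-3p, by 0.19 ± 0.05 (limma adjusted p 0.00235), where 15.4% of all tested miRNAs rose.

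The other members of that list behaved variously. miR-16-5p, which restrains Bcl2, differed by 0.28 ± 0.11 at 4 weeks and did not pass (SE; limma adjusted p 0.0513), and its cluster partner miR-15a-5p by -0.14 ± 0.11 (0.285). Their correlation with miR-144-3p was -0.61 and 0.80. Without smoke arrays 2 and 3 of 4 weeks no member passed at that duration, and the list's median was 0.16 against 0.03 over all tested. The mean level over the list was -0.58 to -0.08 on smoke arrays and -0.71 to -0.21 on control arrays.

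Leukocyte markers were divided in how they moved with miR-144-3p. Of 5 leukocyte miRNAs, all detected, 2 rose and 2 fell at 4 weeks, against the shares of 26.8% and 11.4% over all tested. miR-142-3p, specific to blood cells, fell by 1.28 log2 (limma adjusted p 0.00820) and miR-142-5p by 1.06 (0.00502). miR-223-3p of neutrophils and platelets rose by 0.76 (0.0379), and miR-155-5p of activated leukocytes by 0.86 (0.00595). Their correlations with miR-144-3p were 0.92 for each miR-142 arm, -0.68 for miR-223-3p and -0.91 for miR-155-5p. The fifth, miR-150-5p, differed by 0.36 and did not pass (limma adjusted p 0.231), with a correlation of -0.76. Both miR-142 arms thus went down with miR-144-3p, while miR-223-3p and miR-155-5p went up. These 4 kept their signs in 18 of 18 other settings, except miR-155-5p, with 17. Their limma adjusted p was at most 0.05 in fewer: 13 for each miR-142 arm and for miR-155-5p, and 7 for miR-223-3p. The mean level over the 5 was -1.20 to -0.46 on smoke arrays and -1.01 to -0.44 on control arrays, and without smoke arrays 2 and 3 none passed at 4 weeks. Their part in the result was not tested.

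Of the other lists at 4 weeks, 0 of 2 endothelial miRNAs passed, 3 of 6 epithelial miRNAs rose, 0 of 2 smooth muscle miRNAs passed, and 2 of 4 tested striated muscle miRNAs fell, miR-133a-3p by 0.93 log2 and miR-133b-3p by 0.98. Over all tested miRNAs 26.8% rose and 11.4% fell. In 10 of 18 other settings no striated muscle miRNA fell, among them those without smoke arrays 2 and 3 and without the 3 arrays highest in muscle miRNAs. Of the epithelial ones 0 to 3 rose and 0 to 2 fell in these 18 settings, with none falling in 14. The liver miRNA miR-122-5p differed by 0.84 ± 1.01 log2 at 4 weeks and did not pass (SE; limma adjusted p 0.519). Its difference was largest at 12 weeks, 2.77 ± 1.09, and did not pass there (limma adjusted p 0.106). Over all durations it reached 1.57 log2 on a smoke array and lay at the floor on all control arrays. The mean level over the striated muscle list was -2.73 to -0.76 on smoke arrays and -3.16 to -0.80 on control arrays. Without the 3 arrays highest in muscle miRNAs the 4 weeks difference of miR-144-3p was -1.02 (limma adjusted p 0.300). The part of muscle in it was not tested.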

How the data were processed

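Lung total RNA of 31 samples, extracted with TRIzol per the labels' protocols, was labelled with Cy3 and read on 1-colour miRNA arrays. Spot values are intensity, background-subtracted and detrended by the authors' scanner software, Feature Extraction 10.7.3.1, per the file headers, and not scaled between arrays. The authors' deposited series table holds log2 values made by a normalization that the sources used here do not give, with unknown centring. Array medians in it are 2.71 to 2.85. Scale and direction were read from per-array correlations of 0.981 to 0.985 with the scaled intensities. It was used as an alternative only.

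Control and outlier spots (297 to 655 per array) were left out, spots of a probe averaged, and arrays divided by the 75th percentile of the 385 probes with at least 50% of spots above background on every array. Values under the floor (log2 -6.74) were set to it. The probe brightest on average stood for a miRNA, and 272 detected on 75% of a group's arrays were tested. Differences came from limma 3.58.1 in R 4.3.3, with 8 group means and 23 residual degrees of freedom. The fit was tested on simulated data with known changes. Named miRNAs are the members, the red cell list, for each member the 5 highest and 3 lowest correlations, and list entries that moved with a member. The members, lists and the pairs of arrays left out were chosen with earlier results of these data known. The number of arrays limits the precision.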

Additional observations from a re-analysis of the deposited data

Results flagged for a closer look

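A sample far from the others of its group was found in 2 of the 14 groups of 4 arrays examined over both miRNAs. Chance flags about 1 in 20 such groups. miR-451 on array 4 of 4 weeks control was 5.67 log2, against a mean of 6.02 for the other 3. The same array has the lowest component score of all 31. miR-144-3p on array 2 of 6 weeks smoke was -0.63 log2, against a mean of -0.91 for the other 3, a gap that takes up 0.830 of the group's range and is only just past the critical value.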

How the results depend on the processing

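The differences of miR-451 missed the threshold in most settings, but their sign depended on the processing. At 4 weeks it turned in the authors' deposited table (-0.14) and with the component score as a covariate (-0.064). At 6 weeks it turned in the authors' table (0.0035), and at 8 weeks with the log2 percentile as a covariate (-0.061). With no scaling it also turned at 8 weeks (-0.70, limma adjusted p 0.0172), where the median of all miRNAs was -0.86. For this pass and those below, the share of all miRNAs that passed in the same setting is not given here. The average turned with no scaling (-0.082), with the scanner's summed signal (-0.040) and in the authors' table (-0.014). The 6 weeks difference passed with summed signals (-0.35, limma adjusted p 0.0271). That at 12 weeks passed with the percentile as a covariate (0.26, 0.0373) and with the arrays of that duration alone (0.19, 0.0104). The F test of the smoke effect by duration passed with no scaling (0.0495) and the percentile covariate (0.0178), and that between control durations with the percentile of all probes (0.0419), no scaling (0.0193) and the percentile covariate (0.00977). Quantile scaling sets all miR-451 differences to 0. The 4 weeks difference of miR-144-3p lost its call with the percentile of all probes (-1.41), quantile scaling (-1.35), no scaling (-1.38), normexp (-1.17), the mean of all probes (-1.31), the second brightest probe (-1.32), no detection filter (-1.31), a floor 4 times higher (-1.31), the authors' table (-1.34), slide as a block (-1.31), the arrays of that duration alone (-1.31), without smoke arrays 2 and 3 (-0.24) and without the 3 arrays high in muscle miRNAs (-1.02), and turned with the component covariate (0.27). With the replicate block it was -1.31 (adjusted p 0.0648), and the block changed no other call of either miRNA. Same-numbered arrays had a median correlation of 0.026 over 105 pairs (-0.75 to 0.79, 41 over 0.1), against -0.012 over 315 other pairs. A low correlation cannot exclude a pairing, and the main fits did not pair arrays by number. At 4, 6 and 8 weeks the number is also the slide. With the component covariate miR-144-3p passed at 6 weeks (-0.46), 8 weeks (0.47), 12 weeks (0.38) and, turned, on average (0.17), and in its F tests (0.00273 by duration, 0.0421 in smoke, 0.00316 in control). With the percentile covariate it passed at 8 weeks (1.42) and in the F tests (0.00258, 0.0411 in smoke, 0.0129 in control). It turned at 8 weeks with no scaling (-0.44) and, on average, without smoke arrays 2 and 3 of 4 weeks (0.066). The correlation of the pair turned with the percentile of all probes (0.69), no scaling (0.86) and in the authors' table (0.53), and the gap of their changes at 8 weeks without the 3 muscle arrays (-0.053). Leaving out 1 array at a time gave -1.66 to -0.77 for miR-144-3p at 4 weeks (-0.77 without smoke array 2), with the call lost in 22 of 31 fits. It gave -0.011 to 0.82 at 8 weeks, -0.71 to 0.13 and -0.11 to 0.69 for the gap at 6 and 8 weeks, and -0.54 to -0.35 for the correlation, whose permutation p lay above 0.05 without array 2 of 6 weeks control (0.0588). The sign at 8 weeks turned without smoke array 2 of 8 weeks (-0.011). The count of miRNAs called, of 272 tested, was 104, 22, 30 and 26 at 4, 6, 8 and 12 weeks and 75 on average. In other settings it ranged over 4 to 149, 2 to 78, 3 to 203, 4 to 417 and 12 to 150. The 417 is above the 272 tested and comes from the setting without a detection filter. That setting fits all 650 miRNAs, undetected ones among them, so its counts are not comparable with the others. The median of all miRNAs at 4 weeks was 0.17, against -0.75 with normexp, and -0.05 at 8 weeks, against -0.86 with no scaling. Normexp used median spot signals, a choice made after seeing the files, as were both covariates; the same correction on mean signals was not run. The cause of these changes was not tested.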
